A study of Homo sapiens with 7 samples.

Results

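The genes that write, copy, remove and read DNA methylation were measured in HCT116 cells, a human colorectal carcinoma line, with and without added miR-148a-3p. They are 10 genes chosen by symbol out of 15659 symbols with a count: the DNA methyltransferases DNMT1, DNMT3A and DNMT3B, the maintenance factor UHRF1 and its paralog UHRF2, the 5-methylcytosine oxidases TET1, TET2 and TET3, the glycosylase TDG and the methyl-CpG reader MBD2. DNMT1 and DNMT3B were included because both are reported targets of the miR-148 family. All 10 symbols had counts in every mRNA library.

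Cytosine methylation in CpG dinucleotides is laid down on new sites by DNMT3A and DNMT3B. After replication, UHRF1 binds the half-methylated DNA and brings DNMT1 to it, which restores the mark on the new strand. TET enzymes oxidise 5-methylcytosine, TDG excises the oxidised bases, and base excision repair refills the gap. MBD2 binds methylated CpG and recruits the NuRD histone deacetylase complex. In colorectal cancer the promoters of many genes carry dense methylation, and in HCT116 cells DNMT1 and DNMT3B together are known to keep most of it.

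The cells with miR-148a-3p were HCT116 DROSHA-KO cells transfected with that microRNA (3 libraries), and the cells they were compared with were HCT116 DROSHA-KO cells transfected with a control miRNA (3 libraries). Both groups carry the loss of DROSHA, the nuclear enzyme that starts microRNA processing, so both make few canonical microRNAs of their own. RNA was collected 48 h after transfection, and oligo-dT primed 3′ end libraries were made from it. A further library held small RNA of wild-type HCT116 cells, with no replicate. The labels do not say whether the knockout is 1 clone, which control sequence was used, or whether replicates are separate cultures. P-values here therefore describe the scatter among these libraries, some or all of which may be technical.

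The miR-148a-3p libraries held 630142 to 1564125 counts and the control libraries 876131 to 1069154, of which the 10 genes took 390 to 1015 and 615 to 842. Levels are counts scaled to a common library size with TMM factors (CPM), and because each transcript is counted near its 3′ end they do not grow with transcript length. Control replicate 1 and miR-148a-3p replicate 3 lay at opposite ends of the first principal component (−31.3 and 38.4, against −9.71 to 12.3 for the others). The keratins KRT8, KRT18 and KRT19, which mark epithelium, were counted in all libraries, as was the intestinal factor CDX2, while KRT20, LGR5, CEACAM5, CDX1, TFF3 and MUC2 were at 0. Of the remaining colon epithelium markers, EPCAM had 16 to 28 reads a library, CDH1 1 to 13 and VIL1 0 to 2. Of 13 blood cell markers, 11 were at 0 in all 6 libraries, and the list summed to 0 CPM with miR-148a-3p and to 0 to 3.50 CPM with the control. Fibroblast and endothelial markers summed to 55.6 to 100.4 CPM with miR-148a-3p and 59.5 to 91.5 CPM with the control, mostly from COL1A1.

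The mature microRNAs of the miR-148 family are printed because their seed, bases 2 to 8 in capitals, sets which transcripts they can pair with. The miR-29 family follows because it is the one best known for repressing DNMT3A and DNMT3B. All 6 sequences are from RefSeq (GRCh38.p14), 5′ to 3′.
miR-148a-3p: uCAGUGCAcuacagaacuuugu
miR-148b-3p: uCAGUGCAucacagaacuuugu
miR-152-3p: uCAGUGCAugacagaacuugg
miR-29a-3p: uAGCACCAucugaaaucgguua
miR-29b-3p: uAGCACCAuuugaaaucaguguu
miR-29c-3p: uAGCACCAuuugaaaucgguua
The first 3 share the seed CAGUGCA, whose complement in a target reads TGCACTG as DNA. The last 3 share AGCACCA, with the complement TGGTGCT. Within each family the members differ only after the seed. Mature miR-148a-3p is encoded on chromosome 7 from 25949922 to 25949943, minus strand. Transcript sequences were not used here, so pairing sites in the 10 genes were not searched.

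With miR-148a-3p, none of the 10 genes changed past the test. MBD2 was measured at 118 ± 2.83 CPM with miR-148a-3p and 162 ± 2.38 CPM with the control (SD, n = 3), and UHRF1, the least abundant, at 3.44 ± 1.61 and 10.0 ± 4.12 CPM. These were the 2 genes whose groups did not overlap, both lower with miR-148a-3p, a gap that 6.59% of all tested genes and 5.05% of all symbols with a count showed in that direction. The reported targets DNMT1 and DNMT3B were each measured at 0.84 of their control mean, within the spread between libraries. DNMT3A, TET2 and UHRF2 had fitted values above 0, also within that spread. In RNA from whole cultures, fewer cells expressing a gene and less RNA per cell cannot be told apart.

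Of the 10 genes, 9 had enough counts to be tested and UHRF1 did not. Counts were tested with edgeR's quasi-likelihood test over 8921 genes, and an adjusted p (Benjamini-Hochberg over all genes tested) below 0.05 was the threshold, which 0.0112% of the tested genes passed. Among the 9, 0 passed with edgeR and 0 with limma-voom. DESeq2 gave an adjusted p for 2 of them (DNMT1, 0.739, and MBD2, 0.522) and none for the other 7. The adjusted p ranged from 0.706 to 0.999 with edgeR. At an unadjusted p below 0.05 there was 1, MBD2, where 6.79% of all tested genes had such a p. The fitted log2 fold change was below 0 for 5 of the 9 and above 0 for 4. Their median was −0.18, against −0.0039 over all tested genes.

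**Figure D1:**
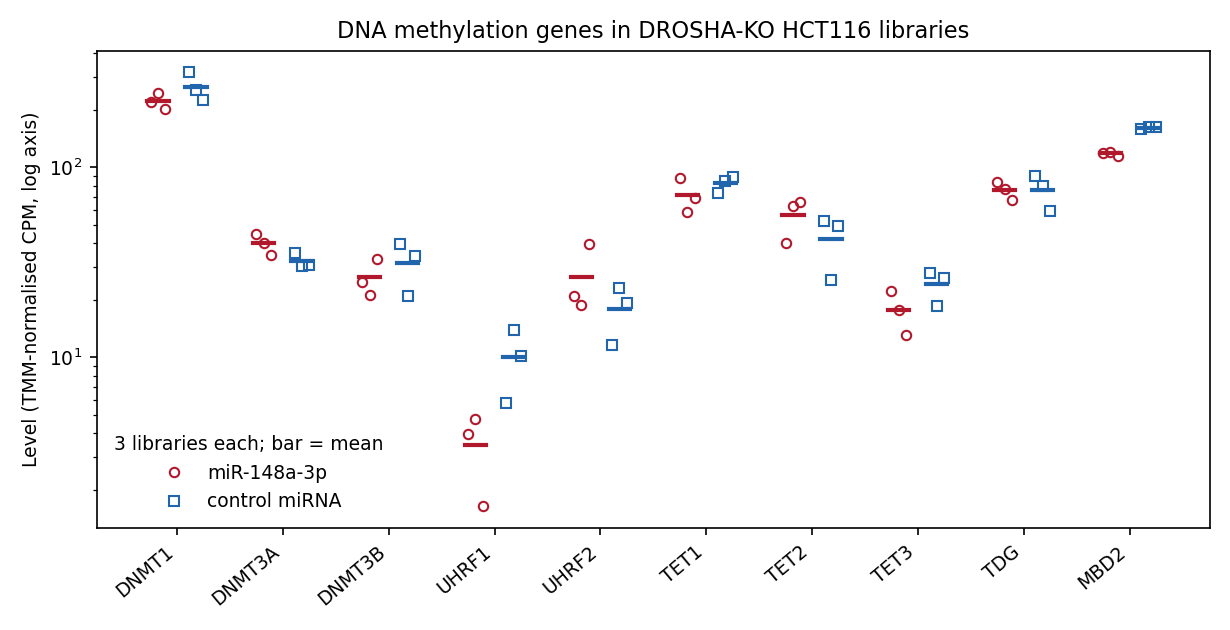
Level of each gene in TMM-normalised CPM on a log axis, with 3 miR-148a-3p libraries (red circles) left of 3 control libraries (blue squares) and a bar at each mean. The points of MBD2 and of UHRF1 do not overlap between groups, as for 5.05% of all symbols in this direction, while those of the other 8 genes do.

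The genes spanned a wide range of levels. DNMT1 was the most abundant in both groups, above 91.7% of all tested genes by its mean over the 6 libraries, and MBD2 came next, above 83.4%. With miR-148a-3p the order was DNMT1, MBD2, TDG, TET1, TET2, DNMT3A, UHRF2, DNMT3B, TET3 and UHRF1. The ranges of DNMT1 and MBD2 did not touch, nor did those of MBD2 and TDG or of TET3 and UHRF1, while all other neighbours overlapped. With the control the order was DNMT1, MBD2, TET1, TDG, TET2, DNMT3A, DNMT3B, TET3, UHRF2 and UHRF1, with gaps after DNMT1, MBD2 and TDG. From DNMT3A down to UHRF2, no neighbours could therefore be told apart in either group.

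DNMT1 (chromosome 19, 10133346 to 10194953), the enzyme that copies methylation after replication, had 335, 209 and 123 reads in the miR-148a-3p libraries, against 328, 220 and 199 in the control libraries. Scaled, these were 221, 247 and 202 CPM with miR-148a-3p, against 316, 257 and 226 CPM with the control. The highest value was control replicate 1, while control replicate 2 lay just above the miR-148a-3p range and control replicate 3 inside it. The fitted log2 change was −0.25 (SE 0.19, 95% interval −0.64 to 0.13, edgeR adjusted p = 0.829). On the linear scale the interval ran from 0.642 to 1.10 of the control level. Without control replicate 1 the log2 fold change was −0.11 (edgeR adjusted p = 0.940), and without any other single library it lay between −0.35 and −0.19. Over all alternatives its adjusted p ran from 0.739 to 0.998.

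DNMT3B (chromosome 20, 32762385 to 32809356), a de novo methyltransferase and the other reported miR-148 target, was counted at 38, 18 and 20 reads with miR-148a-3p, against 41, 18 and 30 with the control. In CPM these were 25.05, 21.3 and 32.9 with miR-148a-3p, against 39.5, 21.0 and 34.1 with the control. The lowest and the highest library were both controls, so the miR-148a-3p values lay inside the control range. This gave a log2 fold change of −0.28 (SE 0.36, 95% interval −1.02 to 0.45, edgeR adjusted p = 0.913). Without control replicate 1 it was −0.088, without control replicate 2 −0.50, and without any other single library between −0.44 and −0.16. On the linear scale the interval ran from 0.492 to 1.37 of the control level, at 18 to 41 reads a library. A change within those bounds is not excluded. The bounds do not give the smallest change that could pass the threshold, which was not worked out.

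DNMT3A (chromosome 2, 25227874 to 25342590), the paralog of DNMT3B, had 68, 34 and 21 reads with miR-148a-3p, against 37, 26 and 27 with the control. These were 44.8, 40.2 and 34.6 CPM with miR-148a-3p, against 35.6, 30.3 and 30.7 CPM with the control. Replicates 1 and 2 with miR-148a-3p were above every control library and replicate 3 was not. DNMT3A had a log2 fold change of 0.32 (SE 0.31, 95% interval −0.31 to 0.96, edgeR adjusted p = 0.886).

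DNMT1 made up 75.0% to 80.1% of the reads of the 3 methyltransferases with miR-148a-3p, and 77.7% to 83.3% with the control. DNMT3A took 15.4%, 13.03% and 12.8% in the miR-148a-3p libraries, against 9.11%, 9.85% and 10.5% in the control libraries. These shares did not overlap between groups, whereas the CPM of DNMT3A did. For CPM, 6.22% of all tested genes showed such a gap in the higher direction, and no such figure was computed for shares. The exact Clopper-Pearson 95% intervals overlapped, with 12.2% to 19.1% in miR-148a-3p replicate 1 and 7.07% to 15.0% in control replicate 3. Such intervals cover counting error only. DNMT3B took 6.90% to 12.2% with miR-148a-3p and 6.82% to 11.7% with the control. The family thus held mostly DNMT1 transcripts in every library.

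**Figure D2:**
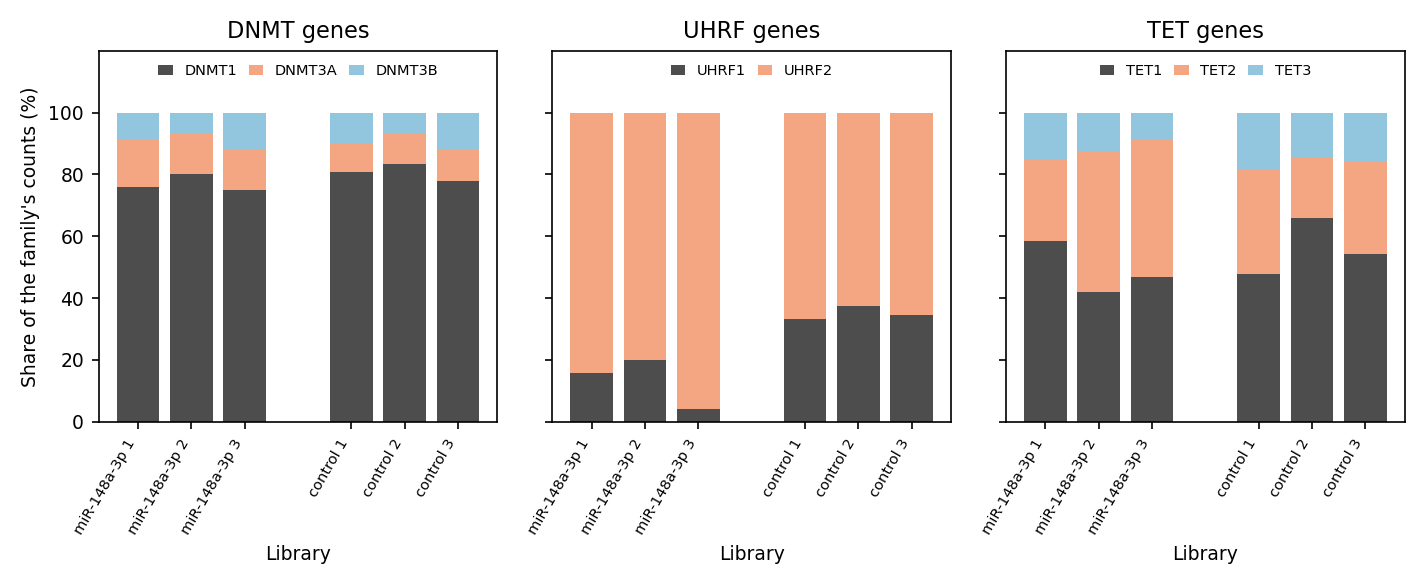
Share of each gene in the summed counts of its family, in percent, for the 3 miR-148a-3p libraries (left) and the 3 control libraries (right) of each panel. DNMT1 holds at least 75.0% of methyltransferase counts in every library, and UHRF1 holds 4% to 20% of the UHRF counts with miR-148a-3p and 33.3% to 37.5% with the control. How often such a gap arises in shares was not computed.

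UHRF1 (chromosome 19, 4903080 to 4962154) recognises half-methylated CpG behind the replication fork and is needed for DNMT1 to find its sites. In all, 6, 4 and 1 reads were counted with miR-148a-3p, against 6, 12 and 9 with the control. These were 3.95, 4.73 and 1.65 CPM with miR-148a-3p, against 5.78, 14.0 and 10.2 CPM with the control, so every miR-148a-3p library was below every control library. Such a gap in the lower direction was found for 5.05% of all symbols with a count, and for 3% of the symbols not tested. Both sets include symbols with 0 reads in some control libraries, such as DAZL, for which such a gap cannot arise. Neither is therefore the share among genes at the level of UHRF1, which is not given here. The ratio of the means was 0.344, and the exact Poisson 95% interval of miR-148a-3p replicate 2 (1.29 to 12.1 CPM) overlapped those of the control libraries (2.12 to 12.6, 7.23 to 24.5 and 4.68 to 19.4 CPM). The 1 read of miR-148a-3p replicate 3 lies below 3 counts, taken here as the floor, which is 4.94 CPM in that library. Without the filter on low counts edgeR gave −1.43 on the log2 scale (SE 0.81, unadjusted p = 0.0721, adjusted p = 0.855).

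UHRF1 is known as a gene of cycling cells, and few reads were counted for it in libraries rich in other such genes. Whether the deposited counting covers the 3′ end of UHRF1 was not tested, so its level, its place as the least abundant gene and its share of the UHRF reads describe the counts as deposited. TOP2A, the topoisomerase of dividing cells, was measured at 1413 ± 218 CPM with miR-148a-3p and 1136 ± 136 CPM with the control. The mean of the 19 listed G1/S and S phase genes, as the log2 deviation from each gene's mean over the 6 libraries, was −0.26, 0.45 and 0.38 with miR-148a-3p, against −0.58, 0.09 and −0.08 with the control. Replicate 1 of each group was thus the lowest of its group on that list. In replicates 2 and 3 with miR-148a-3p the list was above every control library, while UHRF1 was below every control library. The part of the cell cycle in the UHRF1 counts was not tested.

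UHRF2 (chromosome 9, 6413199 to 6507054), which shares the domains of UHRF1 but is not known to replace it in maintenance, had 32, 16 and 24 reads with miR-148a-3p, against 12, 20 and 17 with the control. In CPM these were 21.1, 18.9 and 39.5 with miR-148a-3p, against 11.6, 23.3 and 19.3 with the control. The groups overlapped, and miR-148a-3p replicate 3 stood well above the other 5 libraries. UHRF2 had a log2 fold change of 0.51 (SE 0.43, 95% interval −0.37 to 1.40, edgeR adjusted p = 0.862), which was 0.17 without miR-148a-3p replicate 3. UHRF1 took 15.8%, 20% and 4% of the reads of the pair with miR-148a-3p, against 33.3%, 37.5% and 34.6% with the control. These shares rest on 18 to 38 reads a library. They did not overlap between groups, and how often such a gap arises in shares was not computed. The exact Clopper-Pearson 95% intervals were 6.02% to 31.3%, 5.73% to 43.7% and 0.101% to 20.4% in miR-148a-3p replicates 1, 2 and 3. The control intervals were 13.3% to 59.0%, 21.1% to 56.3% and 17.2% to 55.7%, and of these the interval of control replicate 2 alone did not meet that of miR-148a-3p replicate 3.

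Among the TET oxidases, TET1 (chromosome 10, 68560337 to 68694487) had the highest mean in both groups. It had 133, 49 and 42 reads with miR-148a-3p, against 76, 73 and 78 with the control. These were 87.7, 58.0 and 69.1 CPM with miR-148a-3p, against 73.2, 85.2 and 88.7 CPM with the control. The 2 lowest values were miR-148a-3p libraries, but replicate 1 of that group was within the control range. A log2 fold change of −0.18 was fitted (SE 0.24, 95% interval −0.68 to 0.32, edgeR adjusted p = 0.916), and with 1 library left out it ran from −0.38 without miR-148a-3p replicate 1 to −0.047 without miR-148a-3p replicate 2.

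TET2 (chromosome 4, 105145875 to 105279803), often mutated in myeloid cancers, had 61, 53 and 40 reads with miR-148a-3p, against 54, 22 and 43 with the control. In CPM these were 40.2, 62.7 and 65.9 with miR-148a-3p, against 52.0, 25.7 and 48.9 with the control. Replicates 2 and 3 with miR-148a-3p were the highest of the 6 libraries, replicate 1 lay among the controls, and control replicate 2 was the lowest. For TET2 the log2 fold change was 0.37 (SE 0.31, 95% interval −0.26 to 1.01, edgeR adjusted p = 0.860), against 0.12 without control replicate 2.

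TET3 (chromosome 2, 73983631 to 74135498), the oxidase known from the zygote, was counted at 34, 15 and 8 reads with miR-148a-3p, against 29, 16 and 23 with the control. These were 22.4, 17.7 and 13.2 CPM with miR-148a-3p, against 27.9, 18.7 and 26.2 CPM with the control, with replicate 1 of the miR-148a-3p group inside the control range. On the log2 scale the difference was −0.40 (SE 0.41, 95% interval −1.24 to 0.43, edgeR adjusted p = 0.889). The annotated end of TET3 overlaps the start of the neighbouring span of BOLA3, which had 243 reads over the 6 libraries, and without knowledge of strand reads in that overlap cannot be assigned. TET1 held 41.9% to 58.3% of the reads of the 3 oxidases with miR-148a-3p and 47.8% to 65.8% with the control. TET2 held 26.8%, 45.3% and 44.4% with miR-148a-3p, against 34.0%, 19.8% and 29.9% with the control. The ranges overlapped for each of the 3 genes.

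TDG (chromosome 12, 103965872 to 103988874) cuts out the bases that TET enzymes make. It had 127, 65 and 41 reads with miR-148a-3p, against 94, 68 and 52 with the control, which gave 83.7, 76.9 and 67.5 CPM with miR-148a-3p and 90.5, 79.3 and 59.2 CPM with the control. The control values enclosed all 3 miR-148a-3p values. Its log2 fold change was 0.0030 (SE 0.24, 95% interval −0.50 to 0.50, edgeR adjusted p = 0.999), so changes of up to about 1.42-fold upward or to 0.709 of the control level lay within the interval. The pseudogene TDGP1 had 7 reads over the 6 libraries, and adding them gave −0.022.

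MBD2 (chromosome 18, 54151606 to 54224669), which binds methylated CpG, was the gene with the clearest separation. It had 181, 102 and 70 reads with miR-148a-3p, against 165, 140 and 143 with the control. In CPM these were 119, 121 and 115 with miR-148a-3p, against 159, 163 and 163 with the control. Every miR-148a-3p library lay below every control library, as was the case for 6.59% of all tested genes. A log2 fold change of −0.45 was fitted (SE 0.20, 95% interval −0.85 to −0.041, edgeR adjusted p = 0.706, unadjusted p = 0.0320), and the interval corresponds to 0.554 to 0.972 of the control level. An unadjusted p below 0.05 in the lower direction was found for 3.4% of tested genes.

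The 3 MBD2 values within each group lay closer together than counting alone gives on average. Their coefficient of variation was 2.39% with miR-148a-3p and 1.47% with the control, where Poisson counting of these reads gives 9.89% and 8.21%. These SDs are therefore narrower than the counting error, and the SE of the fit, which borrows information across genes, is the error to read. With 1 library left out the log2 fold change of MBD2 lay between −0.46 and −0.43, and its unadjusted p was above 0.05 in 5 of the 6 cases.

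The genes differed in how far their libraries spread. The variance relative to Poisson counting, which is 1 for counting error alone, was 1.68 for DNMT1 with miR-148a-3p and 7.45 with the control. It was 4.09 and 4.34 for TET2, and 3.72 and 1.95 for UHRF2. For DNMT3A it was 0.570 and 0.263, and for TET3 1.03 and 0.894, so the libraries of these genes varied no more than about what counting predicts.

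**Figure D3:**
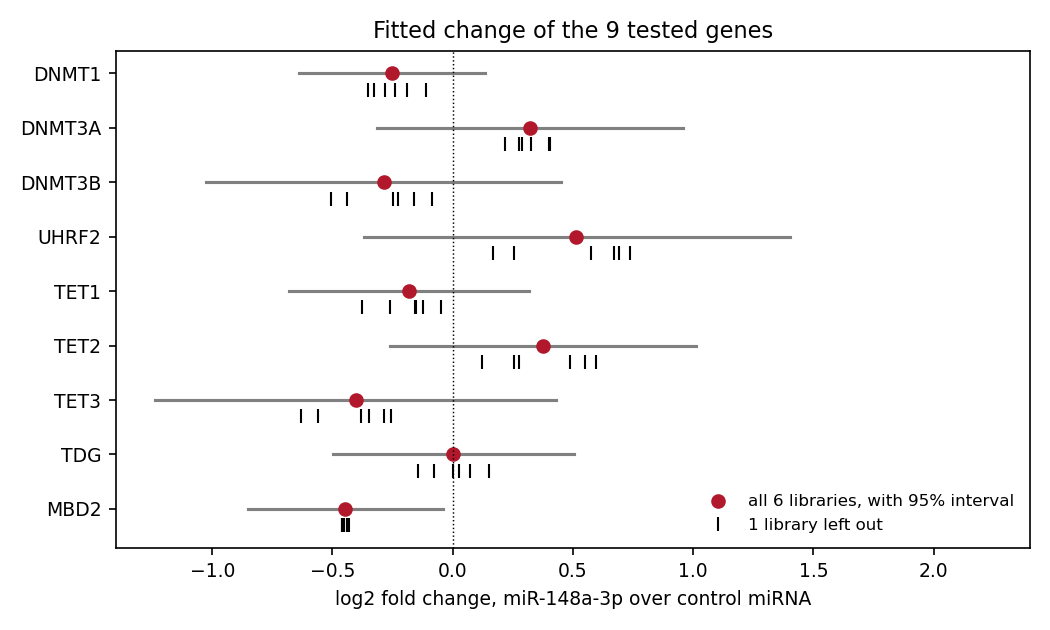
Fitted log2 fold change of the 9 tested genes, miR-148a-3p over control miRNA, with all 6 libraries (red point, grey 95% interval) and with 1 library left out at a time (black ticks). The interval of MBD2 ends just below 0, and those of the other 8 include 0.

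Genes of the same pathway were then read from the fit over all genes by lists of their known roles. In the remaining methyl-CpG and CpG readers, 13 of 14 genes were tested, 3 had fitted values below 0 and 10 above, 0 passed, and the median log2 fold change was 0.06. MBD3, the relative of MBD2 that occupies the same place in NuRD but binds methylated CpG weakly, had the smallest p. It was counted at 56, 42 and 38 reads with miR-148a-3p, against 28, 10 and 21 with the control, and measured at 36.9, 49.7 and 62.6 CPM against 27.0, 11.7 and 23.9 CPM. All miR-148a-3p libraries were above all control libraries, a gap found in the higher direction for 6.22% of tested genes. MBD3 was picked for its p, so that share is not the one for genes picked this way. MBD3 had a fitted log2 value of 1.20 (SE 0.36, edgeR adjusted p = 0.398). The most abundant of the list were CXXC5, a CXXC-domain protein, at −0.20 (SE 0.21), and KDM2A, a demethylase that binds unmethylated CpG, at 0.41 (SE 0.23).

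All 12 subunits of NuRD were tested, of which 2 had fitted values below 0 and 10 above, with a median of 0.16 and 0 past the threshold. GATAD2A, a scaffold that links MBD proteins to the remodeller CHD4, had the smallest p. It was at 58.7, 116 and 125 CPM with miR-148a-3p, against 55.9, 38.5 and 53.5 CPM with the control. Replicate 1 of the miR-148a-3p group was only just above the control range. For 6.22% of tested genes the groups did not overlap in this direction, which is not the share for genes picked by their p, as GATAD2A was. GATAD2A had a fitted log2 value of 0.98 (SE 0.28, edgeR adjusted p = 0.362). HDAC2, a deacetylase, was at −0.17 (SE 0.18) and RBBP7, a histone chaperone, at 0.39 (SE 0.21).

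Of 16 writer cofactors and maintenance partners, 12 were tested, 4 had fitted values below 0 and 8 above, with a median of 0.22 and 0 past the threshold. LIG1, the replicative DNA ligase that binds UHRF1 when methylated, had the smallest p of the list. It was at 57.3, 103 and 93.8 CPM with miR-148a-3p, against 34.7, 54.8 and 34.1 CPM with the control. Its groups did not overlap, a gap found in the higher direction for 6.22% of tested genes. This again is not the share for genes picked by their p. LIG1 had a fitted log2 value of 1.02 (SE 0.29, edgeR adjusted p = 0.322). PCLAF, a PCNA partner that helps to bring DNMT1 to replicated DNA, was at 0.42 (SE 0.22), and TRIM28, the corepressor of KRAB zinc finger proteins, at 0.31 (SE 0.19). The cofactor DNMT3L and the imprint factors ZFP57 and DPPA3 were at 0 in all libraries. The 19 genes of G1/S and S phase likewise had mostly positive fitted values, 16 above 0 and 3 below, with a median of 0.38 and 0 past the threshold. TK1, a thymidine kinase, had the smallest p of them (0.89, SE 0.27, edgeR adjusted p = 0.398). It passed without the filter on low counts (adjusted p = 0.0430), and over all alternatives its adjusted p ran from 0.0430 to 0.998. MCM7, of the replicative helicase, was at 0.26 (SE 0.20) and RRM1, of ribonucleotide reductase, at −0.09 (SE 0.18). The 13 G2/M genes had 11 above 0 and 2 below, with AURKB at 0.45 (SE 0.19), TOP2A at 0.31 (SE 0.17) and MKI67 at 0.08 (SE 0.18), and 0 passed.

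**Figure D4:**
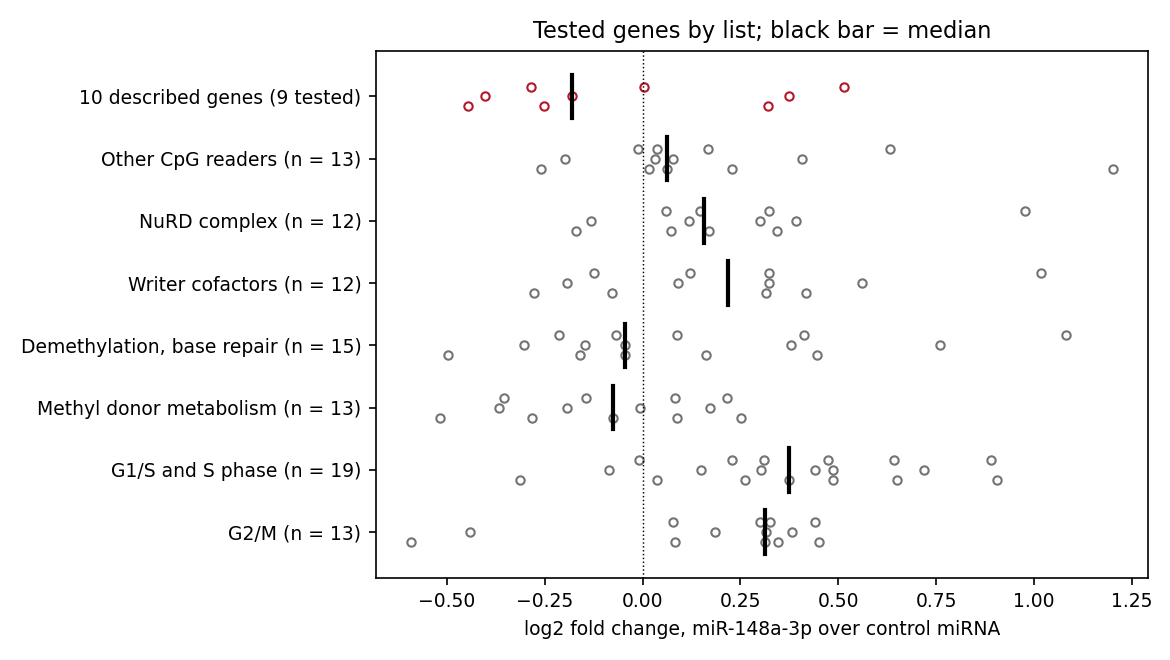
Fitted log2 fold change, miR-148a-3p over control miRNA, of each tested gene in the described set (red) and in 7 lists (grey), with the median as a black bar. The median of the described genes lies at −0.18, against −0.08 for methyl donor metabolism and −0.04 for demethylation and base repair. The other medians are 0.06 for the remaining readers, 0.16 for NuRD, 0.22 for the writer cofactors, 0.31 for G2/M and 0.38 for G1/S and S phase.

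In demethylation and base excision repair, 15 of 19 genes were tested, 8 had fitted values below 0 and 7 above, with a median of −0.04 and 0 past the threshold. UNG, the uracil glycosylase, had the smallest p (0.44, SE 0.23, edgeR adjusted p = 0.726), and PARP1 (0.16, SE 0.19) and the endonuclease APEX1 (0.09, SE 0.21) were the most abundant. The next list held genes around the metabolism of the methyl donor S-adenosylmethionine and of 2-oxoglutarate, the cofactor of TET enzymes. In it 13 of 17 were tested, with 8 below 0, 5 above, a median of −0.08 and 0 past the threshold. AHCYL1 was at −0.0073 (SE 0.17) and the serine hydroxymethyltransferase SHMT2 at 0.17 (SE 0.23).

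Genes that methylation commonly silences were read as a group. Of 22 genes described as promoter-methylated in colorectal cancer, 14 were at 0 in all 6 libraries, among them SFRP1, SFRP2, SFRP5, GATA4, GATA5 and TIMP3. In the smallest library 3 counts, taken as the floor, correspond to 4.94 CPM, so lower levels were not reliably seen there. The 5 tested genes of the list had a median of −0.03 and 0 passed, with VIM, an intermediate filament gene, at 1721 ± 152 CPM with miR-148a-3p and 1760 ± 163 CPM with the control. SEPTIN9 was at 0.05 (SE 0.19) and the repair gene MGMT at 0.27 (SE 0.29, edgeR adjusted p = 0.893). Of 19 germline genes, 15 were at 0 in all libraries. For neither list was the share of all annotated genes at 0 computed, so these counts are not set against it. MAGEB2 was abundant, with 453, 253 and 171 reads with miR-148a-3p, against 270, 284 and 267 with the control. These gave 293 ± 10.1 CPM with miR-148a-3p and 298 ± 35.9 CPM with the control, a fitted log2 value of −0.02 (SE 0.18, edgeR adjusted p = 0.990). SSX1 had 1 to 7 reads a library.

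The promoters of the 10 genes, taken from RefSeq as 250 bases before to 50 after the start, differed in CpG content. They held 3 to 45 CpG, where the median over all 27305 promoters was 14 and over 7301 promoters of tested genes 27. TET3 had the most, 45, followed by UHRF1 with 36, MBD2 with 32 and DNMT1 with 30, and DNMT3B had the fewest, 3. The motif GGGCGG, on either strand, was found in 5 of them (UHRF1, UHRF2, TET2, TET3 and MBD2), against 44.6% of all promoters and 73.6% of the promoters of tested genes. TTTCCCGC was found in UHRF1 alone, against 1.66% of all promoters and 3.01% of those of tested genes. TTTGGCGC, also searched, was found in none of the 10, against 0.659% and 1.21%. Where a symbol had more than 1 promoter, the first listed was kept.

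By the correlation of log2 levels over the 6 mRNA libraries, among 4122 genes with a mean of at least 50 CPM, the genes most like DNMT1 were GSR (Pearson r = 0.98), PCNP (0.98) and CREBZF (0.97). Those most like UHRF1 were ASH1L (0.99), SNHG10 (0.98) and CLCN3 (0.98), and those most like MBD2 were BTBD7 (0.99), CEP350 (0.99) and ZRANB1 (0.98). With 6 libraries that share scaling and depth, 50 to 60 genes reached r above 0.9 with each of the 3, so these are descriptions of the libraries.

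The small RNA library of wild-type HCT116 cells, which still have DROSHA, shows which reported regulators of the 10 genes the parental line makes. It held 3627859 microRNA counts. Of 17 microRNAs reported in various cells to target at least 1 of the genes, 16 were counted, and together they made up 9.88% of all counts (Wilson 95% interval 9.85% to 9.91%). The miR-148 family, whose annotated seed is CAGUGCA, made up 7.196% of counts over all its isoforms and 7.191% over those that begin at the annotated 5′ end. For the miR-29 family, annotated with AGCACCA, these shares were 0.374% and 0.206%, so part of its counts did not carry that seed.

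miR-9-5p, reported to target UHRF1, followed miR-148a-3p within the list with 0.886% of counts. miR-26a-5p, reported to target TET genes and TDG, had 0.809%, and miR-101-3p, reported for DNMT3A and UHRF1, had 0.389%. In the miR-29 family miR-29a-3p had 11527 counts (0.318%), miR-29b-3p 2022 and miR-29c-3p 13. The DNMT1 regulators miR-185-5p and miR-342-3p were lower, at 1556 and 1387 counts, and miR-22-3p, reported for TET2, had 2394. miR-143-3p had 292 counts, miR-145-5p 346 and miR-193a-3p 3. miR-373-3p, reported for MBD2, had 0, for which the Wilson 95% upper limit is a share of 0.000106% (3 counts of the total are 8.27e-05%).

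The seed position was not equally fixed in these microRNAs. Reads began at the annotated 5′ end in 99.9% of miR-148b-3p counts, but in 47.9% of miR-29a-3p and 59.8% of miR-101-3p counts. In both, most of the rest had the offset −1 as the file gives it, with 52.1% of miR-29a-3p and 39.9% of miR-101-3p counts. For these 2 microRNAs, a large part of the counts thus carried a seed shifted by 1 base from the annotated one.

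**Figure D5:**
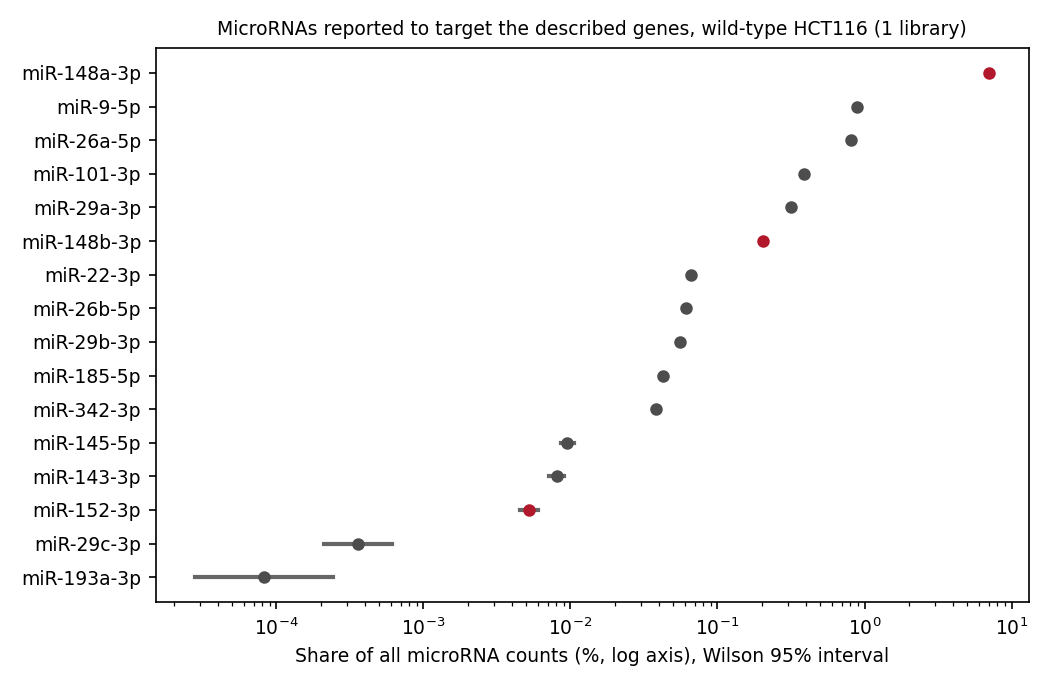
Share of all microRNA counts in the wild-type small RNA library, in percent on a log axis, for the 16 counted microRNAs reported to target the described genes, with Wilson 95% intervals that cover counting error only. Red marks the miR-148 family, in which miR-148a-3p lies far above miR-148b-3p (0.203%) and miR-152-3p (0.00521%).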

How the data were processed

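As deposited, the files held raw counts, 1 per gene symbol for each of 6 mRNA libraries and 1 per microRNA isoform for the small RNA library, not normalized by the authors. A gene absent from a library's list was taken as 0. The submitters' processing notes name cutadapt, STAR, Bowtie2 and GRCh38. The counting tool, the annotation and whether strand was used are not stated in these sources.

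The fit used edgeR 4.0.16 (R 4.3.3) with TMM factors and filterByExpr, and tested the group term, which was the sole covariate, by quasi-likelihood. SE and 95% intervals come from that fit. An exact two-sided permutation test of 3 libraries against 3 cannot go below 0.1 and was not used. Alternatives were other size factors, other filters, DESeq2 1.42.0, limma-voom (limma 3.58.1), a replicate block, thinning and leaving out each library. The scripts were tested on simulated counts. Libraries of the same group differed by 2.52 to 5.30 times the Poisson variance, more than a second sequencing of the same library gives. Gene spans, promoters and microRNA sequences are from RefSeq GRCh38.p14. Of 15659 symbols, 15486 matched a current symbol, 170 an older symbol and 3 none.

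The members and lists were chosen with earlier results of these data known. From each list, the 2 most abundant genes, the gene with the smallest p and any gene past the threshold were named. The colon epithelium markers were all named. For 1 list the gene with the smallest p is not reported here. Likeness was computed for DNMT1, UHRF1 and MBD2. List genes given as being at 0, and BOLA3, were picked with their values in view.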

Additional observations from a re-analysis of the deposited data

How the results depend on the processing

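Under the alternatives run, 0 of the 10 genes had an adjusted p below the threshold, where DESeq2 gave one for 2 of them and UHRF1 had one without the filter alone, and each tested gene other than TDG kept the sign of its fitted value. The number of genes called over the whole table was 1, against 18 without a filter on low counts, 7 with DESeq2, 3 with limma-voom, 2 after thinning to the smallest library, and 1 to 26 with 1 library left out (26 without control replicate 1, 2 without miR-148a-3p replicate 3). The median of the tested genes lay between −0.24 and −0.047 with 1 library left out. The value was −0.047 when miR-148a-3p replicate 2 was dropped and −0.09 when control replicate 1 was, and the cause was not tested. TDG, near 0 throughout, had −0.0042 without the filter and −0.022 with TDGP1 added, 0.19 after thinning to the smallest library, and −0.15 to 0.15 with 1 library left out. With 1 library left out, APEX1 ran from −0.086 to 0.27, PARP1 from −0.024 to 0.32, AHCYL1 from −0.073 to 0.067, VIM from −0.095 to 0.044, SEPTIN9 from −0.035 to 0.17, MAGEB2 from −0.11 to 0.057, MKI67 from −0.14 to 0.26 and KRT19 from −0.037 to 0.19. The listed microRNAs made up 9.80% of the counts that begin at an annotated 5′ end, and 9.88% of all counts. These 2 shares have different bases, so their difference is not the part of counts lost. On the same bases miR-29a-3p had 0.158% and 0.318%, and miR-148a-3p 7.24% and 6.99%.

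Libraries with the same replicate number had a Pearson r of deviations across genes of 0.13, 0.09 and −0.0019 for replicates 1, 2 and 3. Pairs with unlike numbers ran from −0.13 to 0.025, below replicates 1 and 2. The values were small, and the main fit did not take the numbers as pairs. With the replicate block, edgeR called 3 genes and TDG had −0.0027. The depth limits UHRF1 most, with at most 12 reads a library, and DNMT3B, TET3 and UHRF2 had 8 to 41.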
